A study of Drosophila melanogaster with 3 samples.

Results

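The mitochondrial ribosomal protein genes of Drosophila melanogaster were taken as all protein-coding genes whose symbol begins with mRpL (large subunit) or mRpS (small subunit). They numbered 73 of 13945 protein-coding genes, 47 of the large and 26 of the small subunit. Binding near them was read from ChIP-seq peak lists of D (Dichaete), a SoxB transcription factor with an HMG domain. The embryos came from a transgenic line that stably expresses D with green fluorescent protein (GFP) joined to its C-terminus. Whole embryos of both sexes, aged 0 to 14 hours, were used, and chromatin was precipitated with an antibody against GFP after sonication to a stated size range of 200 to 800. The 3 biological replicates form the only group. Whether the control carries the transgene is not given, and whole embryos mix all cell types of these stages.

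Mitochondrial ribosomes translate the few proteins encoded by mitochondrial DNA, all of them subunits of the respiratory chain and ATP synthase. Their own proteins are encoded in the nucleus, made in the cytoplasm and imported, and they assemble on ribosomal RNA made inside the organelle. Some have counterparts in bacterial ribosomes and others are found only in mitochondria. SoxB proteins bend DNA at short AT-rich sites, and D is known for its roles in segmentation and in the developing nervous system.

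Peaks kept by the authors after filtering on the irreproducible discovery rate (IDR) are called IDR peaks here, and the base of highest signal within a peak is its summit. A start-site summit is an IDR summit within 500 bp of an annotated start site of the gene. The signal value (column 7) is the authors' own measure, on a scale that is not stated, and is used only within 1 list. The IDR list held 5047 peaks, with signal values from 188 to 4534 and a median of 310. At the members' start-site summits, signal values and ranks were the same as in the list of the pooled replicates. Each replicate had a list of 30000 regions, and an IDR summit was counted as recovered in a replicate when a summit lay within 200 bp among its 5047 highest regions. Replicate 1 stood apart: it recovered 50% of IDR peaks, against 85.2% in replicate 2 and 83.9% in replicate 3, and 38.5% were recovered in all 3. The reason was not tested, and read depth is unknown. A peak belongs to a region, and its place alone does not link it to a particular gene.

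Most of the bound promoters were stretches between a mitochondrial ribosomal protein gene and a neighbour that is transcribed the other way, and 6 of these stretches of at most 300 bases, free of exons, are shown because the start-site summits lay inside them. Each runs 5′ to 3′ on the strand of the mitochondrial ribosomal protein gene, from the base after the neighbour's start to the base before the gene's own start, in the RefSeq genome of Release 6 (dm6). Capitals mark the Sox core ATTGT, the E-box CAGCTG and the DNA replication-related element (DRE) TATCGATA, on either strand.
mRpS10 to Art3, chr3R:15229409-15229664, plus strand: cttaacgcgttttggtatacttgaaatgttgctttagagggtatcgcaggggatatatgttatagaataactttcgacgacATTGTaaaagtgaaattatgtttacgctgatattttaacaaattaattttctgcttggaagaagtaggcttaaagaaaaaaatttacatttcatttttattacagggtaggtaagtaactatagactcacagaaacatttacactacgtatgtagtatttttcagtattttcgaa
mRpL24 to betaggt-I, chr2L:4945362-4945578, minus strand: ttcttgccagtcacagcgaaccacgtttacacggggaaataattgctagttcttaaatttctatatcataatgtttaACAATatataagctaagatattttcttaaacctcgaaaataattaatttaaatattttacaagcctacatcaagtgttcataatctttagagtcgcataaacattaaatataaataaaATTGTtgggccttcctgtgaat
mRpS2 to Mon1, chr2L:4850420-4850640, minus strand: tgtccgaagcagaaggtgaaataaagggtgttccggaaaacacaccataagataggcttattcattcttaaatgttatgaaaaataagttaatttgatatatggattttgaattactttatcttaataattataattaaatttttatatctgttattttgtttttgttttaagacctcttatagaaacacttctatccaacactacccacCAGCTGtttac
mRpL32 to qless, chr3R:31252609-31252871, plus strand: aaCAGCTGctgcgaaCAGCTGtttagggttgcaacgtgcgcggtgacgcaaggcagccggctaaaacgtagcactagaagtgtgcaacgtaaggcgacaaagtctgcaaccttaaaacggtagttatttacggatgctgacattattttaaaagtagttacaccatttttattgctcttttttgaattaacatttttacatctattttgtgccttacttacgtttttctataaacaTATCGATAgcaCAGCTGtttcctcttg
mRpL39 to Prosbeta2, chr3L:14999667-14999950, minus strand: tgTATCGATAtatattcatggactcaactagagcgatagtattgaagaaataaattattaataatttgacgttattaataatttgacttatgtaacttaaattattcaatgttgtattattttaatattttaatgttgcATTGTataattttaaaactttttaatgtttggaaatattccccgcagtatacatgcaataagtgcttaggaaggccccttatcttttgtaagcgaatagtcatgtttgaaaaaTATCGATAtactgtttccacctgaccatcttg
mRpL21 to rept, chr3L:19255062-19255339, minus strand: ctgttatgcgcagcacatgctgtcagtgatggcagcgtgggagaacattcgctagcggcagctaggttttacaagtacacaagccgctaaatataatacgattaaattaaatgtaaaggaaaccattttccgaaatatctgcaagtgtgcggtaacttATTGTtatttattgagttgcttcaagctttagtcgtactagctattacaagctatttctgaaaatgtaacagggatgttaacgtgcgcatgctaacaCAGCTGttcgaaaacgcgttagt
In mRpS10, the member with the highest signal value, the only Sox core runs from base 82 to base 86 and lies 40 bases from the summit at base 126. In the stretch of mRpL24, with its summit at base 95, the nearer of the Sox cores lies 13 bases away. The stretches of mRpS2 and mRpL32 were bound and hold no Sox core. The E-boxes of mRpS2, mRpL21 and mRpL32 nearest to the own start lie 6, 18 and 11 bases before it. A DRE lies 20 bases before the start of mRpL32 and 25 bases before that of mRpL39.

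For contrast, 2 stretches are shown from members with a divergent neighbour and no region within 500 bp of a start in any of the 4 lists of 30000 regions, that of each replicate and that of the pooled replicates.
mRpL15 to CtIP, chr3L:20436210-20436249, minus strand: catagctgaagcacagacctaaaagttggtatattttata
mRpL46 to CG2021, chr3L:1777412-1777438, plus strand: cgataacgataactgtgccgcaaatca
These stretches, of 40 and 27 bases, hold none of the capitalised motifs. The shortest of the 6 bound stretches shown, at mRpL24, has 217 bases, but mRpL23, which had a start-site summit, lies closer to its neighbour than either of these 2 members, at 24 bp. The stretch of mRpL23, of 23 bases, also holds none of these motifs. Stretches this short leave little room for a motif, so the absence of motifs does not set these 2 members apart. The letters of a stretch describe it and do not show what is bound there.

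A start-site summit was present at 19 of 73 mitochondrial ribosomal protein genes (26%), against 15.3% of all protein-coding genes. Within a wider span, from 2 kb before to 2 kb after the gene, an IDR summit was present at 30 of 73 (41.1%), against 30.4% of all genes. These genes are short, with a median length of 909 bp against 2166 bp for all genes, and 91.8% have a single start site, against 73.5% of all genes. The start-site share changed order when each summit was given only to the gene with the nearest start: 6 of 73 (8.22%) then kept a summit, against 11.6% of all genes. A summit between neighbouring starts cannot be given to 1 of the genes, so the 19 are counted here as promoters within reach of a peak. No test of the members against other genes was made.

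**Figure D1:**
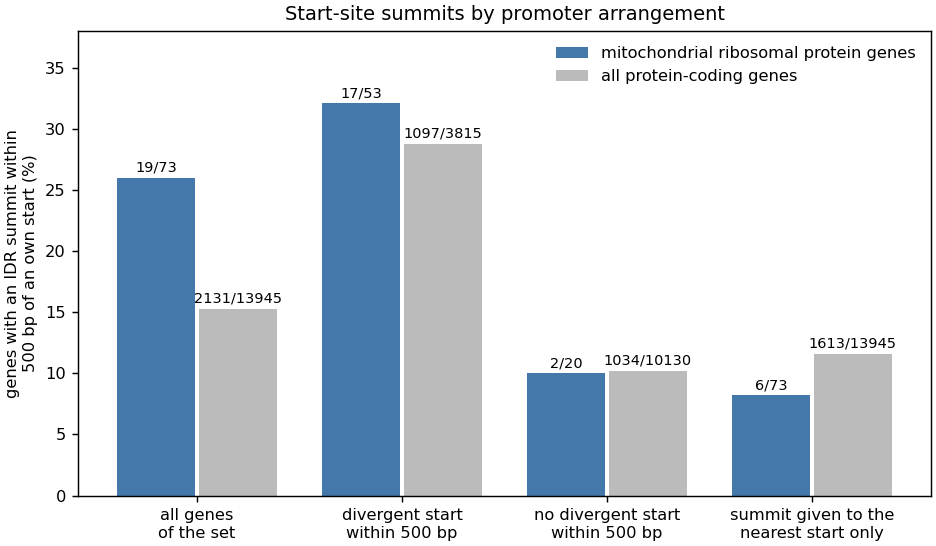
Share of genes with an IDR summit within 500 bp of an own start (%, y axis) for mitochondrial ribosomal protein genes (blue) and all protein-coding genes (grey), with the counts above the bars. The blue bar is higher for all genes of the set (26% against 15.3%), and lower when each summit is given to the nearest start only (8.22% against 11.6%).

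Divergent neighbours were frequent. A start site of another protein-coding gene, upstream on the opposite strand and within 500 bp, was present at 53 of 73 members (72.6%), against 27.4% of all genes, 39.1% of cytoplasmic ribosomal protein genes and 50% of other mitochondrial gene expression genes. Among members with such a neighbour, 17 of 53 (32.1%) had a start-site summit, against 28.8% of all genes with one. Among members without, 2 of 20 (10%) had a summit, against 10.2% of all genes without. In the highest regions of replicate 1 the shares were 18.9% of divergent members, against 10.1% of all divergent genes, and 10% without a divergent start, against 6.65%. In replicate 2 they were 30.2%, against 29.1%, and 5%, against 11.1%. In replicate 3 they were 22.6%, against 27%, and 5%, against 10.9%. In the whole lists of 30000 regions, the divergent members' shares were 20.8% in replicate 1, against 13% of all divergent genes, 90.6% in replicate 2, against 72.4%, and 73.6% in replicate 3, against 69.9%. Members without a divergent start had 10% there in replicate 1, against 20.6% of all such genes. In replicate 2 they had 55%, against 37.6%, and in replicate 3 they had 35%, against 37.3%. The order of divergent members and all divergent genes thus differed between the replicates and, in replicate 3, between its highest regions and its whole list. With the neighbour's start within 250 bp as the definition, a choice added after seeing the data, 4 of 25 members (16%) had a summit, against 23.5% of all such genes, and 15 of the other 48 (31.2%), against 13.9%. With 1000 bp, added in the same way, it was 19 of 58 (32.8%), against 26%, and 0 of the other 15, against 9.18%. The position of the members relative to all genes thus depends on how close a neighbour is counted.

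The spacing between the paired starts differed among members. Divergent members with a start-site summit had a median spacing of 291 bp (24 to 492), and those without had 131 bp (20 to 499). The corresponding medians over all genes were 269 bp with a summit and 230 bp without. In classes chosen after the values were seen, a summit was present at 1 of 18 members with a spacing under 100 bp (5.56%), against 20.1% of all genes with that spacing. In the highest regions the shares at that spacing were 5.56% of members in replicate 1, against 7.24% of all such genes, 16.7% in replicate 2, against 23.5%, and 11.1% in replicate 3, against 20.9%. In the whole lists they were 5.56%, against 9.17%, then 77.8%, against 74.5%, and 66.7%, against 68.9%, in replicates 1, 2 and 3. Most members at the closest spacing therefore had a region in the longer lists of replicates 2 and 3. From 100 bp to below 250 bp it was present at 3 of 7 (42.9%), against 26.1%, and at 250 to 500 bp at 13 of 28 (46.4%), against 34.3%. The member bound at the closest spacing was mRpL23, whose most upstream start lies 24 bp from CG9004.

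Nearly all start-site summits lay before the gene. Distances are to the nearest of the gene's annotated starts. The signed distance had a median of −159 bp (−470 to 77, n = 19) in members and −158 bp over all 2131 genes with a start-site summit. In members, 18 of 19 summits lay upstream (94.7%), against 86.8% of all genes with a start-site summit. None of the 19 lay within 30 bp of the start (0 of 19), against 5.3% of all genes with a start-site summit. The share was 42.9% of cytoplasmic ribosomal protein genes with one, whose median distance was −31 bp. Another gene had a start within 500 bp of 18 of the 19 members' summits, and mRpL41 was the exception. The own start was the nearest of all starts for 6 of the 19: mRpL41, mRpL23, mRpL34, mRpL39, mRpS31 and mRpS18B.

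**Figure D2:**
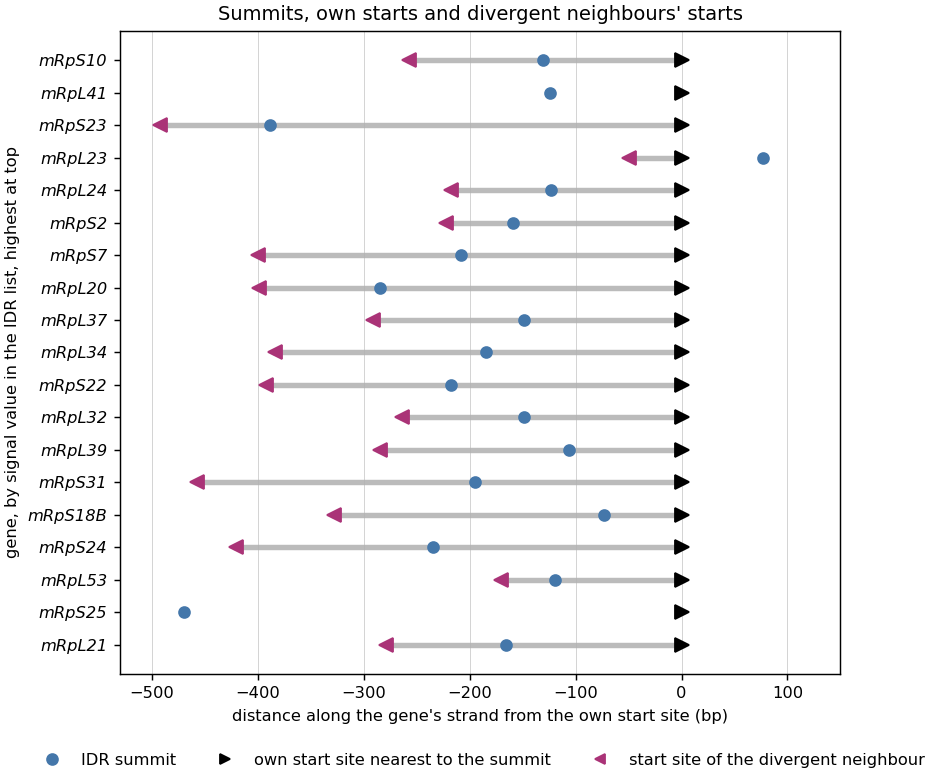
Distance along the gene's strand from the own start site (bp, x axis) for the 19 members with a start-site summit (rows, highest signal value at the top): blue circles are IDR summits, black triangles the own starts nearest to the summits, purple triangles the starts of divergent neighbours. In 16 of 19 rows the summit lies between the paired starts, and in the row of mRpL23 it lies 77 bp after the nearest own start.

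The 4 highest members had signal values far above the median. mRpS10 encodes a small-subunit protein with a bacterial counterpart, and Art3 beside it encodes an arginine methyltransferase. Their shared peak, chr3R from 15229322 to 15229745, was intergenic, with a signal value of 2781, rank 12 of 5047. It ranked 7, 15 and 23 in replicates 1, 2 and 3, so that it was among the highest regions of every list. The summit lay 131 bp before mRpS10 and 126 bp from the start of Art3, so it is nearer to Art3 by 5 bp.

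mRpL41 encodes a mitochondrion-specific protein of the large subunit. Its peak, chr2R from 15217556 to 15217952, had a signal value of 2363 (rank 27) and ranked 8, 32 and 46 in replicates 1, 2 and 3. The summit lay 124 bp before the start in intergenic sequence, and no other gene's start was within 500 bp.

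mRpS23 encodes a small-subunit protein, and CenG1A beside it an Arf GTPase-activating protein. The peak, chr2L from 13835276 to 13835654, had a signal value of 2175 (rank 35) and ranked 42 and 32 in replicates 2 and 3. No region of replicate 1 lay within 200 bp of it. Its summit lay 388 bp before mRpS23 and 104 bp from a start of CenG1A.

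mRpL23 encodes a protein whose bacterial counterpart sits at the exit of the peptide tunnel. Its peak, chr3L from 2373442 to 2373795, had a signal value of 1540 (rank 110) and ranked 42, 147 and 146 in replicates 1, 2 and 3. The summit was the only one of the 19 inside the gene, in a 5′ UTR. It lay 77 bp after the nearest of the annotated starts of mRpL23 and 103 bp after the most upstream one.

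Both mRpL24 and mRpS2 encode proteins with bacterial counterparts, and both were among the highest regions of all 3 replicates. mRpL24 had a signal value of 793 (rank 528) and ranked 339, 457 and 707 in replicates 1, 2 and 3. It shares its promoter with betaggt-I, which encodes the beta subunit of an enzyme that attaches lipid groups to proteins. mRpS2 had a signal value of 699.7 (rank 682) and ranked 422, 776 and 724. Its neighbour Mon1 encodes part of the exchange factor for the endosomal GTPase Rab7.

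A further 4 members had signal values between 378 and 390, above the median of the IDR list. mRpS7, beside the mitotic kinase gene Cdk1, had 390 (rank 1817), and ranked 2492 and 2405 in replicates 2 and 3 with no region of replicate 1 within 200 bp. mRpL20, beside Icmt, which encodes an isoprenylcysteine methyltransferase, had 389 (rank 1825) and ranked 1029, 2540 and 1864. Its span held a second summit, of 493, at the start of CG11267, recovered in all 3 replicates. mRpL37 had 378 (rank 1904) and ranked 643, 2574 and 3309. mRpL34, beside Dg (dystroglycan), had 378 (rank 1906) and ranked 2111 in replicate 2 and 5705 in replicate 3, with no match in replicate 1. An intron of Dg held 2 more summits of the mRpL34 span, of 514 and 263. The replicates thus placed these 4 promoters differently, and replicate 1 held 2 of them.

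The 9 remaining members had signal values from 205 to 306, below the median of the IDR list, and their ranks differed widely between replicates. mRpS22 (306), beside CG5003, ranked 783 in replicate 1 and 9541 in replicate 2, with no region of replicate 3 within 200 bp. mRpL39 (244), beside the proteasome gene Prosbeta2, ranked 1056, 11417 and 5386. These 2 summits were recovered in replicate 1 only. mRpL32 (272), whose neighbour qless encodes an enzyme that makes the side chain of coenzyme Q, ranked 3000, 3272 and 2438 and was the only one of the 9 recovered in all 3. mRpS18B (223), beside Kua, ranked 3417, 2582 and 8912.

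In the other 5 of the 9 replicate 1 had no region within 200 bp. mRpS31 (234), beside hzg, ranked 5126 in replicate 2 and 4253 in replicate 3. mRpS24 (214), beside the Wnt pathway gene Apc2, ranked 3993 and 6132, and mRpL53 (213) ranked 3851 and 3400. The summit of mRpL53 lay in an intron of AGO1, which encodes the argonaute protein of microRNA silencing. mRpS25 (207), the only bound member on X, had its summit 470 bp before its start and 225 bp from that of nmdyn-D6, and ranked 5215 and 18771. mRpL21 (205), beside rept, which encodes an ATPase of chromatin complexes, ranked 6300 and 7046. The last 2 were recovered in no replicate. mRpS25 and mRpL41 are the bound members with no divergent start within 500 bp.

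**Figure D3:**
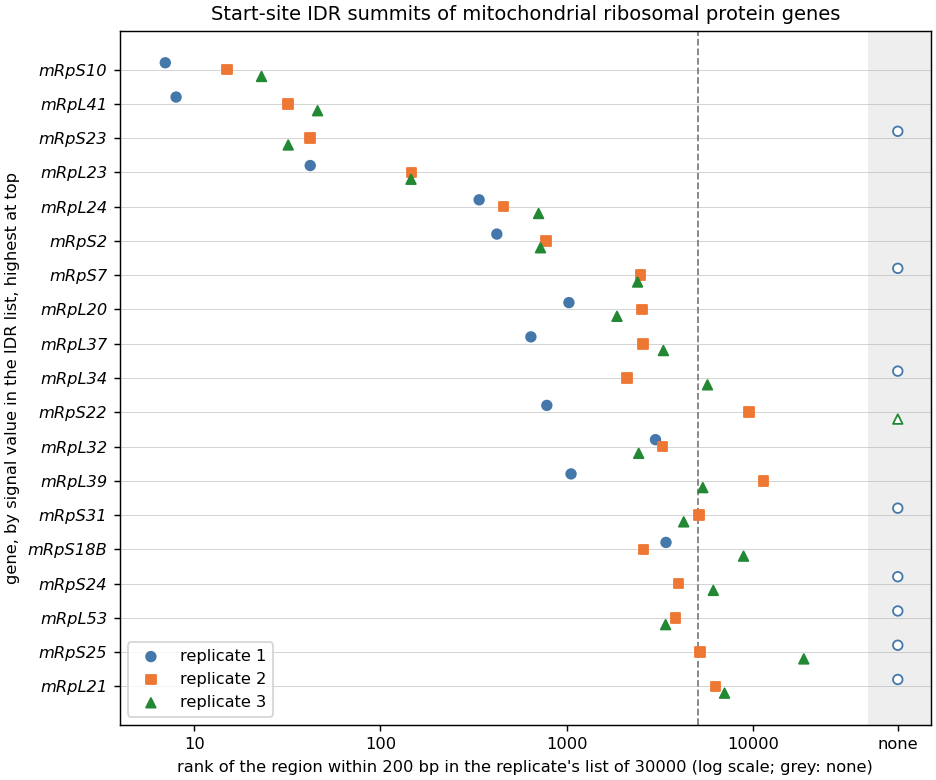
Rank of the region within 200 bp of each start-site IDR summit in the list of 30000 regions of replicate 1 (blue circles), 2 (orange squares) and 3 (green triangles), on a log axis, for the 19 members (rows, highest signal value at the top); open symbols in the grey band mark no region. The dashed line stands at rank 5047, and replicate 1 has no region at 8 of the 19.

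Over the 19 start-site summits, 8 were recovered in all 3 replicates, 4 in 2, 5 in 1 and 2 in none. As a share of members, 8 of 73 (11%) had a summit recovered in all 3, against 4.7% of all genes. With replicate 1 set aside, 11 of 73 (15.1%) had a summit recovered in replicates 2 and 3, against 11.7% of all genes. In replicate 1, 11 members had a recovered summit, against 5.68% of all genes. For the span from 2 kb before to 2 kb after the gene, 10 members (13.7%) had a summit recovered in all 3, against 11.3% of all genes, and 22 (30.1%) had one recovered in replicates 2 and 3, against 24.8%.

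Recovery by replicate had other values at the members' summits than at those of cytoplasmic ribosomal protein genes. The shares count 1 summit for each gene with a start-site summit, so a summit shared by neighbouring genes counts for each of them. Replicate 1 recovered the summit of 57.9% of the 19, against 17.5% of the 63 cytoplasmic ribosomal protein genes with one and 36.8% of all genes with one. Replicate 2 recovered 73.7% of the 19, against 96.8% of the cytoplasmic ones and 87.6% of all. Replicate 3 recovered 63.2%, against 92.1% and 82.4%. Recovery in replicates 2 and 3 but not 1 was seen for 3 of 19 members' summits (15.8%), against 74.6% of the cytoplasmic ones and 45.8% of all. No test of these differences was made. Of the 19, 3 (15.8%) had a summit among the 100 highest IDR peaks, against 3.28% of all genes with a start-site summit and 0 of the cytoplasmic ones.

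When each replicate's list was read directly, at its 5047 highest regions, 12 members (16.4%) had a region within 500 bp of an own start in replicate 1, against 7.59% of all genes. In replicate 2 the count was 17 (23.3%), against 16%, and in replicate 3 it was 13 (17.8%), against 15.3%. Over the whole lists the replicates lay further apart. In replicate 1, 13 members (17.8%) had a region, against 18.5% of all genes. In replicate 2 there were 59 (80.8%), against 47.1%, and in replicate 3 there were 46 (63%), against 46.2%. The pooled list held a region near 39 members (53.4%), against 38.9%. Of the 13 regions near members in replicate 1, 12 were among its highest, and the median rank of the 13 was 783. The regions near members had a median rank of 7641 in replicate 2 and 9084 in replicate 3. Over all genes with a region near a start, the median ranks were 8293.5, 8160 and 8263 in replicates 1, 2 and 3.

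**Figure D4:**
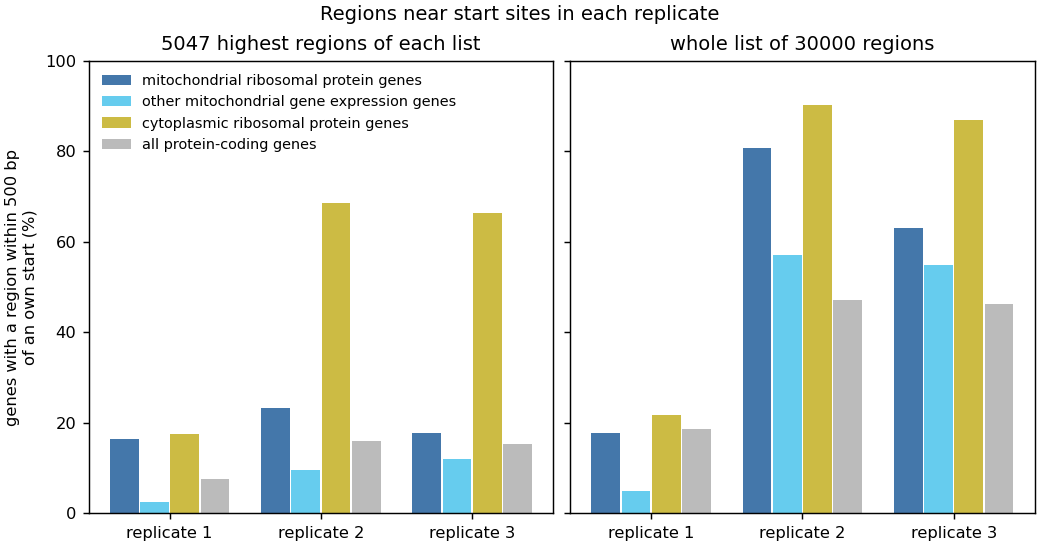
Share of genes with a region within 500 bp of an own start (%, y axis) in each replicate, at the 5047 highest regions (left) and over the whole list (right), for 4 gene sets. Mitochondrial ribosomal protein genes (dark blue) have 80.8% in the whole list of replicate 2 and 17.8% in that of replicate 1.

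Among the 73 members, 11 (15.1%) had a region near a start in the whole lists of all 3 replicates, against 8.08% of all genes, and 32 (43.8%) in replicates 2 and 3 only, against 31.6%. A further 15 (20.5%) had one in replicate 2 only, against 6.76%, and 3 (4.11%) in replicate 3 only, against 5.91%. For replicates 1 and 2 only the count was 1 (1.37%), against 0.681%, for replicates 1 and 3 only 0, against 0.638%, and for replicate 1 only 1 (1.37%), against 9.1%. No region was listed for 10 (13.7%), against 37.2% of all genes. The only member seen in replicate 1 alone was mRpS5, which encodes a small-subunit protein and ranked 2208 there. The 10 with none, which the pooled list also lacked, were mRpL9, mRpL12, mRpL15, mRpL40, mRpL45, mRpL46, mRpS14, mRpS29, mRpS33 and mRpS34. mRpL12 encodes the stalk protein of the large subunit and mRpS29 the homologue of human DAP3, a GTP-binding protein.

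The members just below the threshold had signal values in the pooled list close to the lowest IDR value of 188. mRpL18 had 184 (rank 5177 of 30000), mRpL4 171 (5691), mRpS21 159 (6223), mRpL11 152 (6601) and mRpS6 152 (6619). In replicate 1, mRpL11 ranked 14005 and the other 4 had no region near a start. Replicates 2 and 3 placed these 5 at ranks from 5878 to 14247.

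In 11 of 73 members IDR summits lay only elsewhere in the span, mostly at starts of other genes. This count has no all-gene share beside it and does not set the members apart. The span shares, 41.1% of members and 30.4% of all genes, include the genes with a start-site summit, 26% and 15.3%. mRpL28 had a summit of 807 (rank 507) 142 bp from the start of CG3792, near Gmd, which encodes an enzyme of GDP-fucose synthesis, and it ranked 738 and 518 in replicates 2 and 3 with no match in replicate 1. mRpL40 had one of 607 (rank 877) 66 bp from the start of Irbp, the fly Ku70 gene, which ranked 632, 865 and 983. mRpL13 had one of 588 (rank 923) in an intron of CG10602, which ranked 413, 1265 and 1206. Only the summits of mRpL40 and mRpL13 among these 11 members were recovered in all 3 replicates.

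Cytoplasmic ribosomal protein genes stood beside 2 of these members. mRpL27 had summits of 429 and 292, both nearest to RpL27A, the first 11 bp from its start, and mRpL50 had one of 275 that lay 35 bp from the start of RpL18. The summits of mRpS30 (280) and mRpL19 (277) lay nearest to Rhp and Unc50. That of mRpL22 (256) lay in an intron of if, which encodes an alpha integrin, and that of mRpL12 (223) nearest to GNBP3. mRpL55 had summits of 213 in an intron of cdi and 210 nearest to CG6040. In replicate 1 the summits of these 7 members had no region within 200 bp. The lowest of the 11, mRpL2 at 194, stood 6 bp from the start of Ufd1. The other 43 members had no IDR summit in the span, where 41.1% of members and 30.4% of all genes had one. In all, the spans held 37 summits, 18 of them away from an own start, and these 18 include 1 of 483 near TBC1d7 in the span of mRpS24 and 1 of 195 near CG8993 in that of mRpL23.

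Both subunits and both evolutionary classes held genes with a start-site summit. A start-site summit was present at 10 of 47 large-subunit genes (21.3%) and 9 of 26 small-subunit genes (34.6%). Numbers up to 36 in mRpL and up to 21 in mRpS symbols were taken as proteins of the bacterial type. Of these, 10 of 42 (23.8%) had a start-site summit, and of the mitochondrion-specific remainder 9 of 31 (29%). By chromosome arm the counts were 5 of 12 on 2L, 3 of 12 on 2R, 5 of 17 on 3L, 5 of 21 on 3R and 1 of 11 on X. No share of all genes on each arm stands beside these counts, so they do not show any arm as richer or poorer. With summits recovered in all 3 replicates the counts were 6 large and 2 small, so the share was then higher in the large subunit.

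The start-site share of 19 in 73 members stood against 4 of 42 (9.52%) in a list of other genes of mitochondrial gene expression. That list held tRNA synthetases, translation factors, genes of transcription, RNA and DNA maintenance, and the ribosomal protein genes tko and bonsai, whose symbols do not begin with mRp. SLIRP2 and SLIRP1, which encode RNA-binding partners of LRPPRC-type proteins, had signal values of 1557 (rank 105) and 650 (rank 770). mtSSB, the single-stranded DNA-binding protein of mitochondria, had 456, and CysRS-m, the mitochondrial cysteinyl-tRNA synthetase, had 235. None of these 4 had a region of replicate 1 within 200 bp, and all 4 were recovered in replicates 2 and 3. The span of CysRS-m held a higher summit, of 1251. The ribosomal protein genes tko and bonsai had no summit in the span.

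The 26% of members with a start-site summit stood against 63 of 92 cytoplasmic ribosomal protein genes (68.5%), taken by symbol and including -like paralogues. The signal values of the 19 members had a median of 378 (205 to 2781), against 433 in the cytoplasmic genes and 361 over all genes with a start-site summit. The highest cytoplasmic value was 1249, and 4 members were above it.

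Promoters of the mitochondrial ribosomal protein genes were searched from 250 bp before to 50 bp after the most upstream start, on both strands. The E-box CAGCTG, a palindrome, was present in 40 of 73 (54.8%), against 17.7% of all promoters, 9.78% of cytoplasmic ribosomal protein genes and 47.6% of other mitochondrial gene expression genes. Members with a start-site summit held it in 52.6% and those without in 55.6%. Members with a divergent start held it in 54.7%, against 25.1% of all such genes, and those without in 55%, against 14.9%. Its copies lay near the start: the first base had a median position of 2 after the start, with quartiles at −34 and 16, against −51, −135 and −5 over all promoters. In other mitochondrial gene expression genes they lay close by as well, with a median of −10 and quartiles at −42.5 and 11. The median in cytoplasmic ribosomal protein genes was −29. In the shorter window around summits it was present within 100 bp of 3 of 19 (15.8%), against 9.58% of all start-site summits.

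The DRE TATCGATA was present in 6 of 19 members with a summit (31.6%) and 9 of 54 without (16.7%), against 9.36% of all promoters and 30.4% of cytoplasmic ribosomal protein genes. Its core ATCGATA, which every DRE holds, was present in 31.6% and 33.3% of these members, against 18.2% of all. Within divergent promoters the DRE share was 15.1% in members, against 17.4% of all divergent genes. Without a divergent neighbour it was present in 7 of 20 members (35%), against 6.32% of all such genes. Of all genes with a start-site summit, 12.1% held the DRE in the promoter window. Within 100 bp of the summit the DRE was present at 2 of 19 members' summits (10.5%). The shares there were 4.85% of all start-site summits and 25.4% of those of cytoplasmic ribosomal protein genes.

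The Sox core ATTGT was present in 14 of 19 members with a summit (73.7%) and 36 of 54 without (66.7%), against 61.3% of all promoters. Within 100 bp of the summit it was present at 10 of 19 (52.6%), against 51.2% of all start-site summits and 52.1% of all IDR summits. The longer forms ATTGTT, which holds ATTGT, and ACAATG, which holds its reverse complement, were present in 42.1% and 10.5% of members with a summit and in 27.8% and 7.41% of those without, against 32.1% and 15.8% of all promoters. The share of summits with a Sox core was thus close to that of other IDR summits. The 10 included mRpS10, mRpL41 and mRpL23 of the highest 4, and mRpS23 had none.

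The TATA box, searched as TATAAA, was present in 52.6% of members with a summit and 44.4% of those without, against 45.8% of all promoters. An element of housekeeping promoters, GGTCACAC, was present in 0 of 19 members with a summit and 14.8% of those without, against 7.7% of all promoters. For CAGGTA, the core bound by the early activator Zelda, these shares were 0 of 19 and 13%, against 6.24%. Within 100 bp of the summit CAGGTA was present at 1 of 19 (5.26%), that of mRpS23, against 3.65% of all start-site summits. The repeat GAGAGA, bound by the factor that Trl encodes, was present in 5.26% and 7.41%, against 12.3%. Base composition differed as well. The median GC content within 100 bp of the summit was 27.9% in the 19 members (24.4 to 54.2), against 33.8% over all start-site summits, and that of promoters was 34.7% in members, against 38% of all. Its part in the motif counts was not tested.

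**Figure D5:**
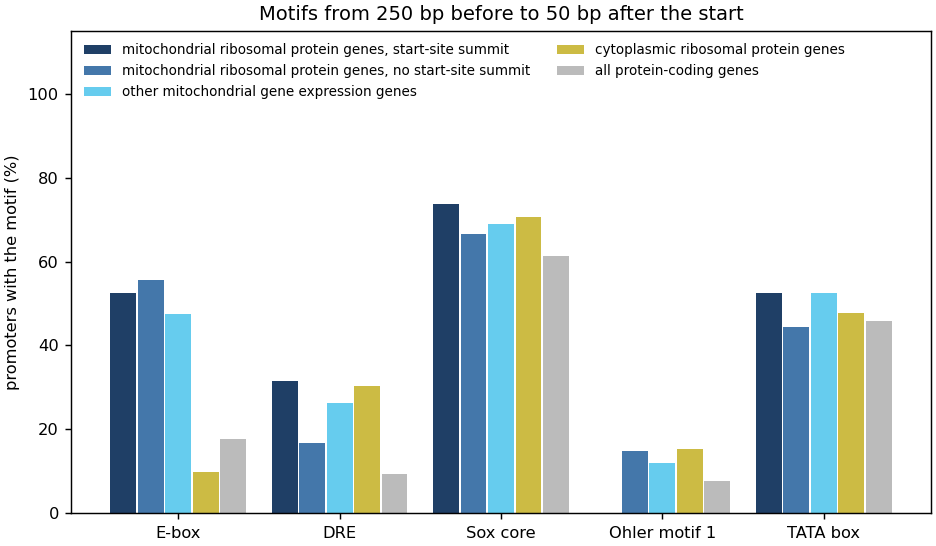
Share of promoters, from 250 bp before to 50 bp after the start, that hold each motif on either strand (%, y axis), for members with and without a start-site summit, other mitochondrial gene expression genes, cytoplasmic ribosomal protein genes and all protein-coding genes. The E-box bars are 52.6% and 55.6% in members and 17.7% over all promoters, and the Sox core bars lie between 61.3% and 73.7%.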

How the data were processed

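Peak lists on the dm6 build were used: per the deposited file lists, each replicate and the pooled replicates had regions called against a control, and the IDR list came from these. The deposited signal value (column 7) is the authors' own, on a scale that is not stated, and the 5047 IDR peaks have 5011 distinct intervals. Alignment, peak calling and IDR settings were not given in the sources used here. Lists on dm3 were not used here, since no annotation of that build was at hand.

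Genes and start sites came from Ensembl release 115 (BDGP6), on X, 2L, 2R, 3L, 3R and 4, and sequence from the RefSeq genome of Release 6. A summit is the region's start plus its peak offset plus 1. Of 43 symbols in the list of other mitochondrial gene expression genes, 42 matched. Distances, ranks, shares and motifs were counted in Python 3.11.15 with numpy 2.4.6 and pandas 2.3.3, and drawn with matplotlib 3.10.9. All counts are descriptions with no test, as there is 1 group and genes are not replicates. The counting was checked on 200 placed summits, and 200 were returned correctly. Named genes are all members with a start-site summit, up to 10 with summits only elsewhere in the span, the 5 highest below the threshold, those in no list, the mitochondrial list genes with a start-site summit, and the genes that share their summits. Of the genes this rule names, 1 is not reported here. mRpL2, mRpS5, tko and bonsai, further summits and their neighbours were named after their values were seen, as were the E-box positions. Members, lists and motifs were chosen with earlier results of these data known. Alternatives were other distances, spans and windows, a stricter peak list, the pooled list and the nearest start only. Each replicate was also set aside in turn, by keeping the IDR peaks recovered in both other replicates.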

Additional observations from a re-analysis of the deposited data

How the results depend on the processing

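The count of 19 members with a start-site summit was 10 in the upper 50% of IDR peaks, 8 with recovery in all 3 replicates, 39 in the pooled list and 6 with the nearest start only. The all-gene shares under these 4 settings were 9.06%, 4.7%, 38.9% and 11.6%. Of the 4, only the nearest-start setting put the members (8.22%) below all genes. Each replicate was also set aside in turn, keeping only IDR peaks recovered in both other replicates. The IDR peaks themselves still came from all 3. With replicates 1, 2 and 3 set aside the counts were 11 (15.1%), 8 (11%) and 9 (12.3%), against 11.7%, 4.9% and 5.14% of all genes. The median signal of 378 was 746 in the upper 50%, where the cut on signal value raises it by construction. It was also 746 with recovery in all 3, and 699.7 to 746 with a replicate set aside. Recovery was itself defined by signal rank in each replicate, so these medians do not test the value of 378. Large-subunit members numbered 6, 6, 24 and 4 in the first 4 settings and 6 to 7 with a replicate set aside. Small-subunit members numbered 4, 2, 15 and 2, and 2 to 4. The span count of 30 was 15, 10, 52 and 6 in the first 4 settings, 10 to 22 with a replicate set aside, and 1 in the gene body only. Span summits recovered in all 3 replicates were present at 13.7% of members, against 11.3% of all genes. Those recovered in replicates 2 and 3 were present at 30.1%, against 24.8%. The other span counts have no all-gene share beside them and do not set these short genes apart. From 500 bp before to 500 bp after the start, motif shares in members were 43.8% for ACAATG (all genes 45.7%), 58.9% for ATTGTT (66.4%), 20.5% for GGTCACAC (10.9%), 76.7% for TATAAA (74.5%), 26% for CAGGTA (22.9%) and 21.9% for GAGAGA (29%). With divergent starts within 250 bp, chosen after seeing the data, 34.2% of members were divergent and 16% of these had a summit. Within 1000 bp the shares were 79.5% and 32.8%. Counts per replicate, the number recovered in all 3 (7 to 10) and the median distance (−159 to −115 bp) stayed within 1.5 times their value or the spread. Read depth is unknown, so a member absent from a list is not shown to be unbound. No paired analysis was possible because the series has 1 group.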
